A study of Mus musculus with 24 samples.

Results

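Inguinal white adipose tissue (IWAT), the fat pad of the mouse groin, encloses the inguinal lymph node, and 15 of the 24 IWAT RNA libraries of this diet study carried lymph node RNA. These 15 libraries were chosen by their level of Ms4a1, the gene for the B cell surface protein CD20: a library was kept where Ms4a1 reached 25 CPM, reads scaled to the total of its column. The rule kept 7 libraries from methionine-restricted mice and 8 from mice on control diets, and the comparison made here is restricted against control within those 15. Ms4a1 lay between 40.2 CPM (elemental MR 6) and 181.2 CPM (casein control 6) in the kept libraries. Just outside the threshold, oxidized casein MR 4 had 10.3 CPM, and the other 8 libraries had less, down to 0.614 CPM. These values chose the libraries and are given without a test.

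All mice were male C57BL6/J, began the diets at 5 weeks of age, ate them for 12 weeks, were 4 months old and were killed after a 4 h fast. The restricted mice ate 0.17% methionine (MR), either in a diet of elemental amino acids (elemental MR, 5 lymph node libraries: 1, 3, 4, 5 and 6) or in a diet of casein that had been oxidized to destroy its methionine, with methionine then added back to the elemental MR concentration (oxidized casein MR, 2 libraries: 3 and 5). The control mice ate elemental amino acids with 0.86% methionine (elemental control, 4 libraries: 1, 3, 4 and 6) or a pelleted diet of casein, listed at 0.86% methionine and not described as oxidized (casein control, 4 libraries: 1, 2, 3 and 6). On casein, restriction and oxidation of the protein therefore cannot be told apart. Libraries were made with a QuantSeq 3′ kit, which reads 1 end of each transcript, from 1 small piece of the frozen fat pad per mouse; the replicate numbers only name the mice. The series title and sample labels name IWAT, whereas the design text speaks of the hepatic transcriptome.

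**Figure D1:**
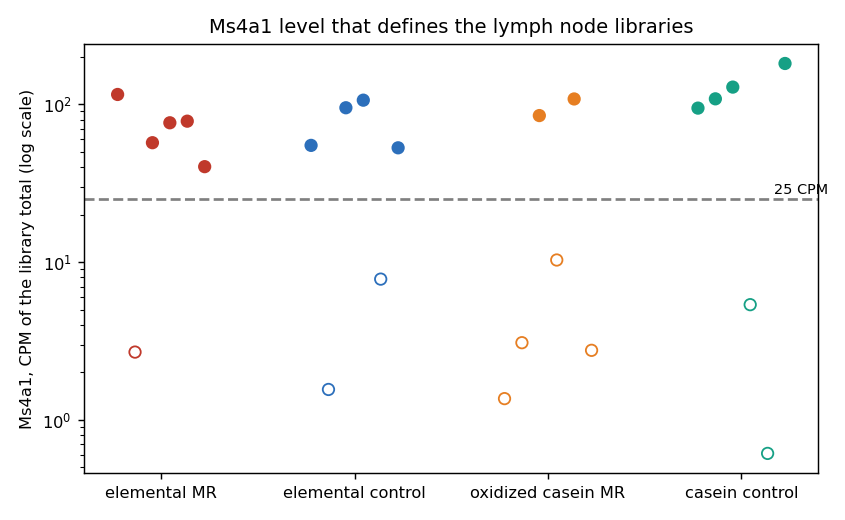
Ms4a1 level (vertical axis, CPM of the library total, log scale) in the 24 libraries by diet. Filled points are the 15 libraries at or above the dashed line at 25 CPM, which lie between 40.2 and 181.2 CPM, and open points are the 9 others, which reach at most 10.3 CPM.

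The label was checked against marker lists, with levels in CPM of the column total except for Adipoq. Ms4a1 is itself a member of the B cell list, and its separation was fixed by the rule, so it adds no check. All 20 T cell markers, 17 of 18 B cell markers and 6 of 11 measured lymph node stroma and venule markers were higher in each of the 15 libraries than in any of the 9 others. The exceptions were Ighm, the IgM heavy chain gene (178.5 to 959.1 CPM of the column total in the 15, 42.7 to 474.1 in the others), and the stroma genes Mfge8, Lyve1, Il7, Clec4g and Tnfsf11. Summed over all 11, the stroma markers overlapped between the sets, and Mfge8, a secreted glycoprotein gene, ranged over 496.0 to 1103 CPM in the 15 and 538.7 to 1481 in the others. Cd3e, a subunit of the T cell receptor complex, ranged over 8.94 to 40.5 CPM of the column total in the 15 libraries and 0.136 to 2.54 CPM in the 9 others. Glycam1, a mucin of the high endothelial venules through which lymphocytes enter a node, ranged over 63.5 to 221.0 CPM in the 15 and 0.248 to 4.14 CPM in the others, and the B cell chemokine gene Cxcl13 over 19.3 to 72.1 CPM in the 15 and 1.99 to 7.67 CPM in the others. The pieces were also fat: Adipoq, the gene for adiponectin, had 1959 to 3209 TMM-scaled CPM in the restricted lymph node libraries and 1656 to 2704 in the control ones.

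White adipocytes store triglyceride in a single large droplet, while beige and brown adipocytes are rich in mitochondria and burn fatty acids as fuel. In those cells UCP1 lets protons re-enter the mitochondrial matrix without making ATP, so that oxidation releases heat. Dietary methionine restriction is known in rodents for raising energy expenditure and for inducing thermogenic genes in inguinal fat. A lymph node is a packed organ of B cells, T cells, dendritic cells, stromal cells and specialised venules, with its own transcriptome.

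In the lymph node libraries, 9 of 24 thermogenic genes, 10 of 23 genes of fatty acid oxidation and 9 of 46 nuclear respiratory genes were higher in restricted mice by edgeR's test, and none of these was lower. The gene lists can share members: the called genes Slc25a20 and Acot2 count in both the thermogenic and the fatty acid oxidation list. The binding protein gene Igfbp4 and the matrix gene Dpt were lower, and none of 18 B cell and 20 T cell markers passed. The 18 include Ms4a1, whose level chose the libraries. Of 15644 genes tested with edgeR's quasi-likelihood test, with protein source as an additive term and Benjamini-Hochberg adjustment over all genes, 328 passed an adjusted p of 0.05. Of these, 237 were higher in restricted libraries (1.51% of the genes tested) and 91 were lower (0.582%), together 2.1%. At an unadjusted p of 0.05, 2383 genes passed, and the median log2 fold change (restricted over control) of all genes was -0.04. All 328 called genes had the same sign within elemental and within casein diets. They were chosen by the effect over both sources in these same libraries, which favours like signs, so this is for description. Within elemental diets alone 5 of 15644 genes were called, and within casein diets alone 5. In 35 of the higher genes every restricted library lay above every control library, and in 27 of the lower ones every restricted library lay below. Over all genes tested, 40 (0.256%) and 36 (0.23%) separated in that way. Bulk RNA cannot tell fewer cells of a type from less RNA per cell. The p-values measure the spread between single mice.

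The number of calls depended on single libraries. It was 769 without elemental control 1, the control library with the most Ucp1. It fell to 92 without oxidized casein MR 3 and to 106 without oxidized casein MR 5, the only pair from that diet. It was 212, 154 and 194 without elemental MR 1, 4 and 6, 140 and 177 without elemental control 4 and 6, and 214 without casein control 1. Of the 60 called genes named by rule, none changed direction in any omission, but 31 lost their call without oxidized casein MR 3 and 25 without oxidized casein MR 5. The number was 20 without elemental control 4 and 20 without elemental control 6, 19, 18 and 17 without elemental MR 6, 4 and 1, and 10 without casein control 1. Leaving out any of the other 7 libraries cost at most 7 calls.

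Among called genes with a mean log2 CPM of 2 or more, the 3 largest rises were in Dhrs9, Lgr6 and Slc25a34. Slc25a34, a member of the Slc25 family of mitochondrial inner membrane carriers, lies at chr4:141618824-141623821 on the minus strand (GRCm38). It had 50.1, 39.2, 58.3, 44.9 and 48.0 TMM-scaled CPM in the elemental MR libraries and 24.2 and 23.5 in the oxidized casein MR libraries. It had 10.0, 6.24, 4.25 and 4.74 in the elemental control libraries and 2.54, 3.91, 6.43 and 2.16 in the casein control libraries. Every restricted library was higher than every control library, and its log2 fold change of 2.85 ± 0.21 (SE, as for every fold change given with ±) had the smallest adjusted p of all genes, 2.3e-06 by edgeR. Dhrs9, which encodes a short-chain dehydrogenase that acts on retinoids and steroids, lies at chr2:69380445-69404533 on the plus strand. It had 9.18, 6.80, 13.5, 8.91 and 13.5 CPM in elemental MR and 5.16 and 6.80 in oxidized casein MR. It had 0.827, 1.25, 0.574 and 1.29 CPM in elemental control and 0.188, 1.23, 0.668 and 0.083 in casein control. The groups did not overlap here either, and the log2 fold change was 3.43 ± 0.31 (edgeR adjusted p = 5e-06).

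Lgr6, a receptor for R-spondins, followed with a log2 fold change of 2.90 ± 0.46 (edgeR adjusted p = 0.008). Its restricted libraries spanned 14.1 to 36.5 CPM with a median of 24.4, and its control libraries spanned 0.249 to 9.37 with a median of 1.70. Gmpr, GMP reductase, which returns GMP to IMP, rose by a log2 fold change of 1.26 ± 0.13 (edgeR adjusted p = 2.5e-05) with 27.5 to 60.5 CPM in restricted and 12.0 to 23.4 in control libraries. The Gmpr locus overlaps the opposite-strand gene Atxn1 by 4046 bases, and the strand setting of the counting is not given in the sources used here. Slc4a4, a sodium bicarbonate cotransporter, rose by 1.49 ± 0.27, and its groups did not overlap, at 52.3 to 140.8 CPM in restricted and 12.3 to 41.1 in control libraries; its call was lost without oxidized casein MR 3 (1.41 to 1.59 over all omissions). Chchd10, a protein of the mitochondrial intermembrane space, had 1435 to 2659 CPM in restricted and 215 to 1488 in control libraries, with a log2 fold change of 1.19 ± 0.23. Hebp2, a heme-binding protein, rose by 1.24 ± 0.19 and Egln3, an oxygen-sensing prolyl hydroxylase, by 1.29 ± 0.24. Impa2, an inositol monophosphatase, rose by 1.28 ± 0.22. Mfsd4b1 rose by 1.28 ± 0.23, but it has close paralogs among which short reads may be split. The mitochondrial tRNA gene mt-Tv rose by 1.38 ± 0.24, and Pla2g2e, a secreted phospholipase, by 1.198 ± 0.30; Pla2g2e lost its call in 11 of the 15 fits that each left out 1 library, with log2 fold changes between 1.03 and 1.38.

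Genes of thermogenic fat were among the risen. Of 24 measured members of the beige and brown adipocyte list, 9 rose and 0 fell, 21 had a positive log2 fold change, and the list's median was 0.95. Gk, glycerol kinase, which lets adipocytes reuse the glycerol freed by lipolysis, had 42.6 to 107.5 CPM in restricted and 9.21 to 32.1 in control libraries, with medians of 60.4 in restricted and 20.8 in control libraries. Its log2 fold change was 1.61 ± 0.25 (edgeR adjusted p = 0.007), with no overlap. Elovl3, a very-long-chain fatty acid elongase that cold induces in brown fat, had 131.4 to 335.1 CPM in restricted and 3.98 to 79.9 in control libraries, and a log2 fold change of 2.60 ± 0.41 (edgeR adjusted p = 0.0083). Kcnk3, a background potassium channel of brown adipocytes, rose by 1.12 ± 0.16. Clstn3, whose mouse locus also encodes an adipocyte protein of lipid droplets, rose by 1.17 ± 0.18. Cox8b, a subunit of cytochrome c oxidase found in brown fat and muscle, rose by 1.02 ± 0.24, and the nuclear receptor gene Esrra by 0.62 ± 0.15. Otop1, a proton channel, rose by 1.03 ± 0.24. With DESeq2's Wald test 16 of the 24 were called higher. Each 1-library omission left between 6 and 15 of the 24 called, the fewest being 6 (without any of elemental MR 1, 4 or 6, elemental control 4 or 6, either oxidized casein MR library, or casein control 1) and the most 15 (without elemental control 1); the list's median stayed between 0.88 and 1.10.

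Ucp1 itself separated the groups but sat at the threshold of the gene-wide test. It had 2039, 1489, 2625, 1295 and 2481 CPM in elemental MR and 1266 and 1441 in oxidized casein MR. It had 1224, 732.7, 340.3 and 373.2 CPM in elemental control and 107.6, 240.0, 437.6 and 37.9 in casein control. All 7 restricted libraries were above all 8 control libraries, the nearest pair being oxidized casein MR 3 and elemental control 1. The log2 fold change was 2.02 ± 0.48 with an edgeR adjusted p of 0.051; DESeq2's Wald test gave 0.00226, and edgeR gave 0.0152 to 0.142 with 1 library left out. It was also 1 of 8 single values tested by exact permutation of the diets within protein source, 2-sided, for which its p was 0.000529 (0.00212 after adjustment over the 8), the smallest p that the 1890 permutations can give. The list members Cidea, a lipid droplet protein of brown adipocytes, and Ppargc1a, a coactivator of mitochondrial genes, did not pass, with log2 fold changes of 0.93 ± 0.33 and 0.70 ± 0.19 (edgeR adjusted p = 0.189 and 0.0645).

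**Figure D2:**
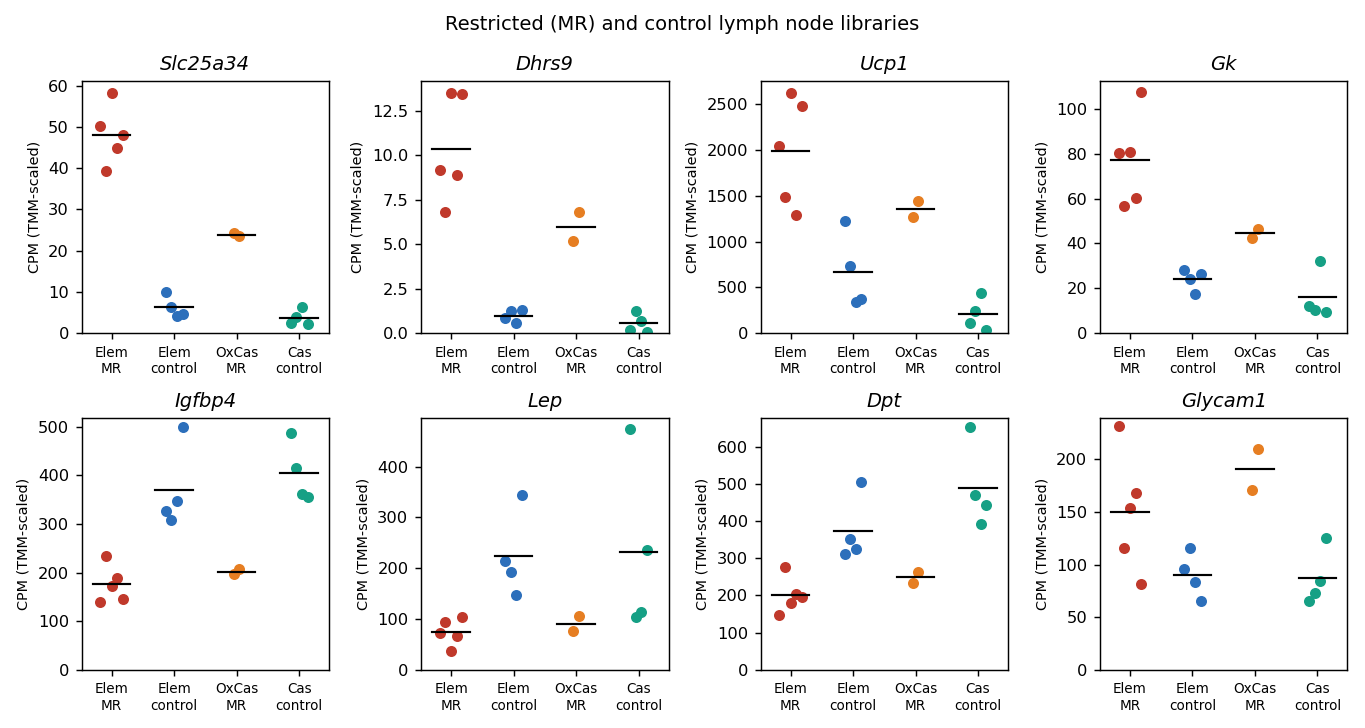
TMM-scaled CPM (vertical axes, from 0) of 8 genes in the 15 lymph node libraries by diet, with 1 point per mouse and a bar at each diet's mean. Slc25a34, Dhrs9, Ucp1 and Gk are higher in every restricted library than in any control library, Igfbp4 and Dpt are lower in every one, and the groups of Lep and Glycam1 overlap.

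On the route from fatty acid to respiratory chain, members of each list passed, all of them higher in restricted libraries. Of 23 genes of fatty acid oxidation 10 rose, 0 fell, and the median log2 fold change was 0.63. Slc25a20, which carries acylcarnitines into mitochondria, had 126.7 to 257.0 CPM in restricted and 37.3 to 139.4 in control libraries, a log2 fold change of 0.97 ± 0.16 (edgeR adjusted p = 0.0051). Acadvl, the very-long-chain acyl-CoA dehydrogenase, rose by 0.93 ± 0.20 and Hadha, of the trifunctional protein, by 0.84 ± 0.20. Crat, carnitine acetyltransferase, rose by 0.64 ± 0.12. Etfdh, which passes electrons from acyl-CoA oxidation to ubiquinone, rose by 0.99 ± 0.20. DESeq2's Wald test called 17 of the 23 genes higher. Between 3 and 16 of the 23 were called when 1 library was left out, the fewest being 3 without either oxidized casein MR library and 6 without elemental control 4, and the most 16 without elemental control 1.

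Of 22 genes of the TCA cycle and pyruvate dehydrogenase, called TCA cycle genes here and below, 5 rose. All 22 had a positive log2 fold change, and the median was 0.52. Idh3a, a subunit of isocitrate dehydrogenase, had 386.5 to 738.5 CPM in restricted and 129.1 to 417.2 in control libraries (log2 fold change 0.83 ± 0.17, edgeR adjusted p = 0.0131), a call lost without either oxidized casein MR library (0.76 to 0.91 over all omissions). Of 46 nuclear genes of the respiratory complexes 9 rose and 44 had a positive log2 fold change, with a median of 0.51. The 9 included the complex III genes Uqcrfs1 (0.71 ± 0.16), Uqcrc2 (0.60 ± 0.14) and Uqcrh (0.55 ± 0.13), and the complex I gene Ndufv2 (0.52 ± 0.12). How many of these genes passed the threshold turned on single libraries, while their median fold change did not. For the respiratory genes the count was 0 without elemental control 4 or without either oxidized casein MR library and 42 without elemental control 1. It was at most 5 without elemental MR 1, 4 or 6, elemental control 6 or casein control 1, 2 or 6, and 16 without elemental MR 5. Over all these omissions the median lay between 0.45 and 0.63. For the TCA cycle the count was 0 without either oxidized casein MR library, at most 3 without elemental MR 1, 4 or 6, elemental control 4 or 6 or casein control 1 or 2, 8 without elemental MR 5 and 18 without elemental control 1, with a median between 0.46 and 0.65. Both counts were 0 without the protein source term in the model. With DESeq2's Wald test they were 38 for the respiratory genes and 15 for the TCA cycle.

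Of 8 measured mitochondrially encoded transcripts 1 rose, mt-Nd1, a complex I subunit, by 0.67 ± 0.17, and all 8 had a positive sign with a median of 0.57; the number called was 5 without elemental MR 3, 4 without elemental control 1, 2 without elemental MR 5, and 0 without elemental MR 1, 4 or 6, elemental control 4 or 6, casein control 1 or 2 or either oxidized casein MR library. With DESeq2's Wald test 6 of the 8 transcripts were called higher. Mitochondrially encoded transcripts took 31.6 ± 3.42% of all reads in restricted libraries and 24.3 ± 5.21% in control libraries (mean ± SD, n = 7 and 8), a difference adjusted for source of 5.84 percentage points (exact permutation p = 0.00529, 0.0106 after adjustment over the 8 values). The ranges overlapped, at 28.0 to 36.2% in restricted and 15.9 to 31.1% in control libraries.

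Some carriers and genes of protein import rose. Of 29 Slc25 carriers, 21 had a positive sign, the median was 0.27, and 4 rose. The 4 were Slc25a34, Slc25a20, Slc25a42, a coenzyme A carrier (1.26 ± 0.22), and Slc25a51, the mitochondrial NAD+ carrier (0.61 ± 0.13). Slc25a20 is also on the thermogenic and fatty acid oxidation lists. There were 8 calls without elemental MR 5 and 10 without elemental control 1. There were 3 without elemental control 4 or either oxidized casein MR library. In those fits Slc25a51 lost its call (0.57 to 0.76 over all omissions). Of 37 genes of mitochondrial protein import and folding, a list added after values were seen, 10 rose and all 37 had a positive sign, with a median of 0.36. Mtx2, of the outer membrane sorting machinery, rose by 0.66 ± 0.12, Timm50, of the inner membrane translocase, by 0.51 ± 0.10, and Hspa9, the matrix chaperone that pulls proteins in, by 0.59 ± 0.13. Other lists of that kind, 32 peroxisome genes and 9 genes of pyruvate entry, had 6 and 4 members that rose and 0 that fell. Mpc2, of the mitochondrial pyruvate carrier, rose by 0.82 ± 0.17 and Pdk2, which inhibits pyruvate dehydrogenase, by 0.79 ± 0.16; both passed, as did Pdk1 and Pdp2. Without oxidized casein MR 3 the import count was 2, the peroxisome count 1 and the pyruvate count 0, and without oxidized casein MR 5 they were 3, 3 and 0. Without elemental control 4 the counts were 6, 2 and 1, without elemental MR 4 they were 5, 2 and 2, and without elemental control 6 they were 6, 5 and 2. The import count was 17 without elemental control 1, and the peroxisome count was 3 without elemental MR 6 or casein control 1.

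Lipid synthesis showed few calls. Of 30 genes 2 rose and 0 fell, with a median of 0.33: Dgat1, which completes triglyceride synthesis (0.48 ± 0.10), and Gpd1, which makes the glycerol backbone (0.99 ± 0.23). Without oxidized casein MR 3 the count was 0, without elemental control 1 it was 7, and it was 1 without elemental MR 1, 4 or 6, elemental control 4 or 6, oxidized casein MR 5 or casein control 1. Neither Fasn, fatty acid synthase (0.50 ± 0.26, exact permutation p = 0.0974), nor Scd1, the stearoyl-CoA desaturase (0.07 ± 0.18, exact permutation p = 0.639), passed. Of 15 genes of lipolysis and fatty acid uptake 2 rose, Abhd5, the activator of adipose triglyceride lipase (0.52 ± 0.10), and Slc27a1, a fatty acid transporter (0.52 ± 0.11); neither was called without oxidized casein MR 3, and 1 was without oxidized casein MR 5. Pck1, which feeds glyceroneogenesis, had a log2 fold change of 0.57 ± 0.15 that did not pass (edgeR adjusted p = 0.057).

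Igfbp4 had the smallest p of the genes that fell. Igfbp4, which binds and holds insulin-like growth factors, lies at chr11:99041244-99054392 on the plus strand. It had 139.4, 234.8, 172.8, 189.7 and 145.8 CPM in elemental MR and 196.7 and 206.4 in oxidized casein MR. It had 327.0, 308.6, 346.6 and 500.4 CPM in elemental control and 487.0, 414.5, 361.3 and 355.0 in casein control. Every restricted library was lower than every control library; the log2 fold change was -1.05 ± 0.13 (edgeR adjusted p = 0.00036, exact permutation p = 0.000529, 0.00212 adjusted over the 8 values). Igfbp5, another binding protein of the family, fell by 0.54 ± 0.13 on the log2 scale, and Prlr, the prolactin receptor on the same list of 20, rose by 1.19 ± 0.26. The Igfbp5 call was lost in 7 of the 15 omissions (-0.60 to -0.43) and the Prlr call in 4 (1.06 to 1.43). Dpt, dermatopontin, a matrix protein, fell by 0.92 ± 0.15, with 146.3 to 277.4 CPM in restricted and 311.8 to 652.9 in control libraries. Of 31 extracellular matrix genes 2 fell, Col3a1 (-0.71 ± 0.17) and Col6a3 (-0.65 ± 0.16), 0 rose, and 2 had a positive sign, with a median of -0.32. Both calls were lost without elemental MR 1, 4 or 6, elemental control 4 or 6, or either oxidized casein MR library, Col6a3 lost its call also without elemental MR 5 or casein control 1, 2 or 3, and 4 genes were called without elemental MR 3 or casein control 6. Of the 31 genes 7 fell with the lymphocyte marker level as a covariate.

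Other falls were spread over enzymes, receptors and inflammatory proteins. Adamts5, a matrix protease, fell by 1.26 ± 0.23 on the log2 scale and Serpine2, a protease inhibitor, by 0.94 ± 0.14. Cavin3, of caveolae, fell by 1.25 ± 0.24, a call lost without oxidized casein MR 3. Slc7a8, an amino acid transporter, fell by 1.13 ± 0.22, and Trabd2b, a membrane protease that acts on Wnt proteins, by 1.17 ± 0.21. Npr3, which clears natriuretic peptides, fell by 1.04 ± 0.22, and Grb14, an adaptor that restrains insulin receptor signalling, by 0.998 ± 0.21. Both calls were lost without elemental MR 1 or 6, elemental control 6 or oxidized casein MR 3, and that of Npr3 also without elemental MR 4, with log2 fold changes of -1.21 to -0.90 for Npr3 and -1.10 to -0.89 for Grb14 over all omissions. Ap3b2, a subunit of an adaptor complex best known in neurons, had the largest fall of the called genes described here (-2.46 ± 0.38) at low levels throughout, with 0.146 to 0.688 CPM in restricted and 1.10 to 2.58 in control libraries. Plppr3 (-1.17 ± 0.16) overlaps the opposite-strand gene Ptbp1, which has more reads, by 4297 bases, so its reads may not be its own. Tuba1a, an alpha tubulin with near-identical paralogs, had a log2 fold change of -1.28 ± 0.29, and its call was lost in 10 of the 15 single omissions (-1.39 to -1.08). Adra1b, an adrenergic receptor, had -0.95 ± 0.24; its call was lost in 12 of the 15 omissions, with limma voom and with DESeq2 size factors, and its value was -0.63 without elemental control 6.

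Of 21 complement genes, a list added after values were seen, 4 fell and 0 rose, with a median of -0.30. C4b fell by 0.95 ± 0.15 on the log2 scale, but it has a near-identical neighbour, C4a, among whose reads it may be split; C1s1 fell by 0.50 ± 0.10, C2 by 0.50 ± 0.12 and Cfb by 0.54 ± 0.13. Of the 4 calls 2 were left without elemental MR 1, 4 or 6, elemental control 4 or 6, or either oxidized casein MR library. Lbp, which hands lipopolysaccharide to its receptor, and Serpina3n, a secreted protease inhibitor, fell by 1.197 ± 0.28 and 0.96 ± 0.22. The Lbp call was lost in 8 of the 15 omissions (-1.31 to -1.01) and the Serpina3n call in 9 (-1.16 to -0.85). Lep, the gene for leptin, had 36.3 to 105.7 CPM in restricted libraries (median 76.2) and 104.5 to 474.1 in control libraries (median 202.9). The groups met at oxidized casein MR 5 and casein control 2, and the log2 fold change of -1.50 ± 0.36 missed the gene-wide threshold (edgeR adjusted p = 0.052), with an exact permutation p of 0.0037 (0.00988 adjusted over the 8 values).

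Of 34 targets of ATF4, the transcription factor that answers amino acid shortage, 0 passed with edgeR (median 0.08), with 8 at an unadjusted p under 0.05; DESeq2 called 3 higher and limma voom 1. With edgeR, 2 were called without elemental control 1 and 1 each without elemental MR 3 or 5 or casein control 1 or 3. Asns, asparagine synthetase, had 21.5 to 34.9 CPM in restricted and 16.4 to 31.2 in control libraries (0.09 ± 0.11, exact permutation p = 0.401). Psat1, of serine synthesis, had 22.6 to 44.2 CPM in restricted and 19.7 to 39.1 in control libraries (-0.09 ± 0.15, exact permutation p = 0.567). Of 27 genes of methionine and sulfur amino acid metabolism 1 fell, Nnmt, which spends methyl groups on nicotinamide (-0.50 ± 0.12), a call lost in 6 of the 15 omissions (-0.54 to -0.44). Outside that list, Oplah, an oxoprolinase of glutathione turnover, rose by 0.76 ± 0.12, and Cars2, the mitochondrial cysteinyl-tRNA synthetase, by 0.88 ± 0.14. Cars2 overlaps the opposite-strand gene Naxd, which has more reads, by 984 bases, so its reads may not all be its own. Of 23 white adipocyte genes 0 passed with edgeR, with 9 at an unadjusted p under 0.05; DESeq2 called 4 higher and 2 lower, and limma voom 0. With edgeR, 3 were higher and 1 lower without casein control 2, 1 higher and 1 lower without casein control 3, 1 higher without elemental MR 1 or elemental control 1, 1 lower without elemental MR 3, and 2 higher and 2 lower with the lymphocyte level as a covariate. Of 17 clock genes 1 fell, Cry2, a repressor in the clock (-0.50 ± 0.10), a call lost without either oxidized casein MR library.

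**Figure D3:**
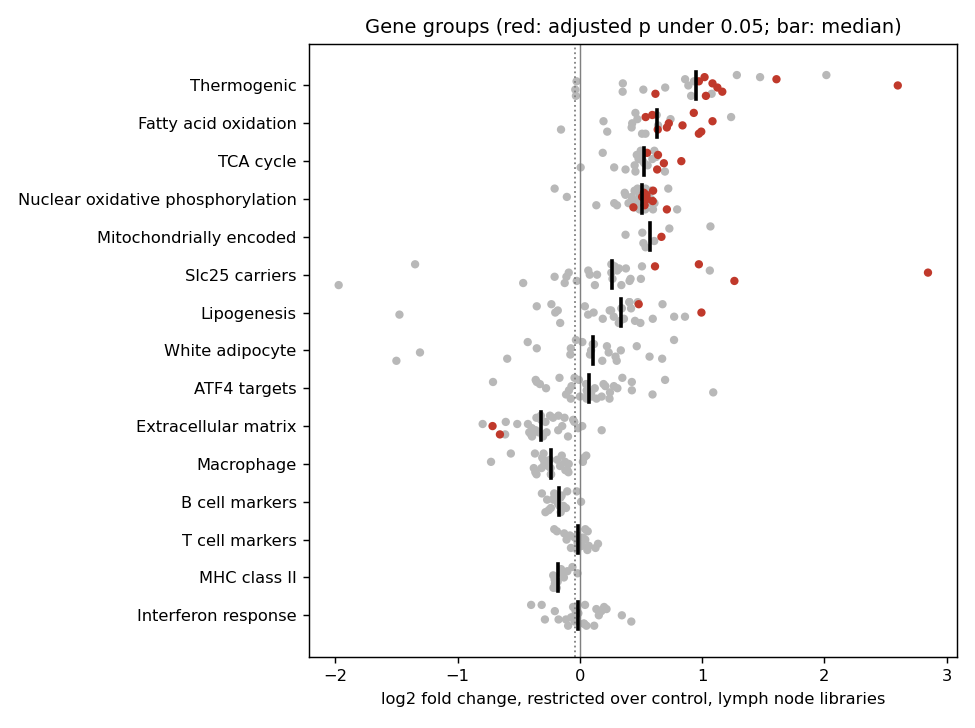
Log2 fold change, restricted over control, in the lymph node libraries (horizontal axis) for every tested member of 15 gene groups (rows), with called genes in red, a black bar at each group's median and a dotted line at the median of all genes, -0.04. The oxidative groups sit right of 0 with medians between 0.51 and 0.95 and the matrix genes left of it at -0.32, while the B cell, T cell and MHC class II markers have no called member.

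The lymph node's own genes gave 1 call among the lists that mark it. None of 18 B cell genes (median -0.17) and none of 20 T cell genes (median -0.02) passed. The 18 genes and their sum below include Ms4a1, whose level chose the libraries, so the result for Ms4a1 is no test. That choice also bears on genes that move with Ms4a1, so the B cell results are for description. No gene passed among 16 germinal centre, 13 MHC class II, 10 dendritic cell, 26 interferon response or 24 proliferation genes. A positive sign was seen in 1 of 18 B cell, 9 of 20 T cell, 10 of 16 germinal centre and 0 of 13 MHC class II genes. It was also seen in 5 of 10 dendritic cell, 12 of 26 interferon response and 19 of 24 proliferation genes. DESeq2 and limma voom also called 0 in each of these 7 lists, and at an unadjusted p under 0.05 edgeR had 3 germinal centre genes, all higher, and 0 of the others. Cd3e had 10.8 to 25.8 CPM in restricted and 12.4 to 31.0 in control libraries (0.03 ± 0.22). The summed B cell markers ran from 696.7 to 1883 CPM of the column total in restricted libraries (median 1223) and from 932.0 to 3514 in control libraries (median 1840), and the summed T cell markers from 428.0 to 985.2 in restricted (median 797.7) and from 492.0 to 1731 in control libraries (median 861.2). The sums overlapped between the groups, and the highest of each kind was in a control library. With the mean level of these B and T cell genes (Ms4a1 included) as a covariate, 564 genes were called, among them 324 of the 328.

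Glycam1 was the exception, 1 of 11 measured stromal and venule genes. It had 231.3, 115.4, 153.7, 167.6 and 81.8 CPM in elemental MR and 170.8 and 210.3 in oxidized casein MR. It had 95.3, 115.5, 83.7 and 65.0 CPM in elemental control and 65.7, 73.0, 84.6 and 125.7 in casein control. The groups overlapped, since elemental MR 6, the library with the least Ms4a1, and elemental MR 3 lay among the controls. The log2 fold change was 0.89 ± 0.21 (edgeR adjusted p = 0.039), which limma voom did not call (adjusted p = 0.0521). The adjusted p was 6.3e-05 with the lymphocyte level as a covariate, and the call was lost without elemental MR 1, 4 or 5, elemental control 4 or 6, either oxidized casein MR library, or casein control 1, 2 or 3. Over all omissions the log2 fold change lay between 0.77 and 1.005. At an Ms4a1 threshold of 10 CPM it was 0.66, with no call. The other 10 members, Cxcl13 among them (-0.19 ± 0.16), did not pass. Of all 11 genes 4 had a positive sign, with a median of -0.21.

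Markers of other cell types were detected in both groups, and edgeR called 0 members of their lists. Summed over 27 macrophage and inflammation genes the level was 741.9 to 1558 CPM (median 1205) in restricted and 1267 to 2210 (median 1543) in control libraries. This and the other levels in this paragraph are CPM of the column total. For 16 progenitor genes it was 622.3 to 1007 (median 784.1) in restricted and 811.3 to 1400 (median 1033) in control libraries. For 12 endothelial genes it was 432.9 to 626.4 (median 574.3) in restricted and 553.3 to 896.4 (median 781.4) in control libraries, and for 8 smooth muscle genes 213.8 to 329.4 (median 263.3) in restricted and 272.0 to 473.5 (median 361.6) in control libraries. The 15 skeletal muscle genes summed to 34.3 to 328.5 (median 211.6) in restricted and 70.4 to 563.2 (median 116.6) in control libraries. The 11 hepatocyte genes summed to 627.9 to 1759 (median 1294) in restricted and 460.2 to 11030 (median 1488) in control libraries, the top value coming from elemental control 6, which had 5497 CPM of Alb. A positive log2 fold change was seen in 3 of 27 macrophage, 4 of 16 progenitor, 0 of 12 endothelial and 3 of 8 smooth muscle genes. It was also seen in 7 of 15 skeletal muscle and 1 of 11 hepatocyte genes. No marker of these lists was at 0 in all libraries. The keratinocyte, duct, erythroid, nerve and granulocyte lists also had 0 called members with edgeR, and limma voom called 0 in any of these lists. At an unadjusted p under 0.05 edgeR had 7 hepatocyte, 6 macrophage, 3 progenitor, 3 granulocyte and mast cell, 2 endothelial, 2 smooth muscle, 2 duct, 1 keratinocyte and 1 nerve gene, all lower. DESeq2 called 3 hepatocyte, 1 smooth muscle and 1 granulocyte or mast cell gene lower, and the fit with the lymphocyte level as a covariate called 1 progenitor, 1 smooth muscle and 1 nerve gene lower. Of the single omissions, 1 macrophage gene was called lower without elemental MR 3, 1 granulocyte or mast cell gene without elemental control 1 or 3, 1 smooth muscle gene without elemental MR 5 or casein control 6, and 1 nerve gene without casein control 6. All these sums overlapped between the groups, and their part in the falls of matrix and complement genes was not tested.

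The 9 libraries without lymph node, 5 restricted and 4 control, came from other mice on the same diets and share no library with the 15. The mix of restricted diets differed: 1 elemental MR and 4 oxidized casein MR libraries here, against 5 elemental MR and 2 oxidized casein MR among the 15. The 15 skeletal muscle genes summed to 6255 CPM of the column total in elemental MR 2 and 15820 in elemental control 2. In the lymph node libraries they reached at most 563.2, and the part of muscle RNA in the calls was not tested. The same test called 593 of 15820 genes in the 9 libraries (3.75%), 315 higher (1.99%) and 278 lower (1.76%). The count was 164 without casein control 5, 216 without elemental MR 2, 351 without casein control 4 and 355 without oxidized casein MR 4. Of 236 genes higher in the lymph node libraries and tested in both sets, 105 were also higher there, 44.5% of the first list and 33.3% of the second, and 232 had the same sign. Of 91 lower genes, 45 were also lower, 49.5% of the first list and 16.3% of the second, and 87 had the same sign. Over all genes tested in both sets, 2.09% were called higher in the 9 libraries and 1.83% lower, and 50.0% had a positive sign there. None of the called genes was called in opposite directions. With 1 of the 9 libraries left out the shared genes numbered 37 to 124 higher and 25 to 44 lower, the fewest higher being 37 without casein control 5 and 42 without elemental MR 2 or casein control 4, and the fewest lower 25 without casein control 5. The median log2 fold changes of the higher genes were 0.61 in the lymph node libraries and 0.72 in the others, and of the lower genes -0.74 in the lymph node libraries and -0.78 in the others. The medians in the lymph node libraries come from the values that selected the genes and are for description.

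**Figure D4:**
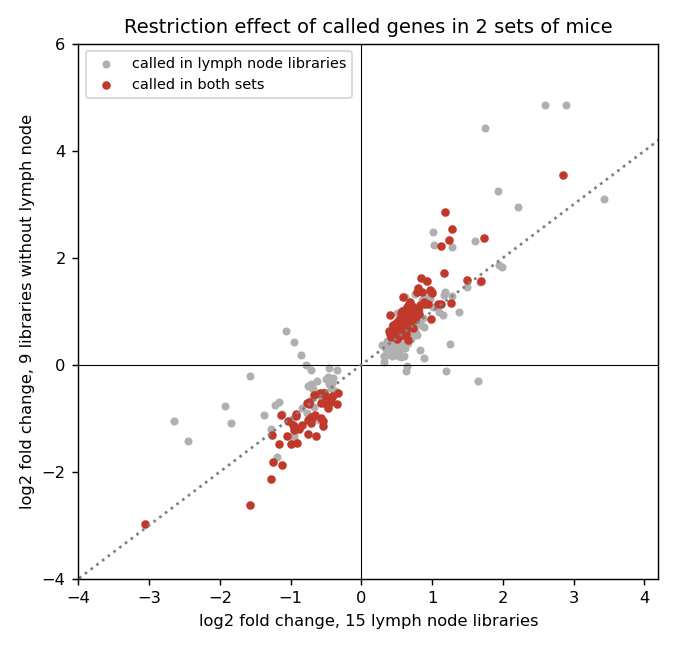
Log2 fold change, restricted over control, in the 15 lymph node libraries (horizontal axis) and in the 9 libraries without lymph node (vertical axis) for the genes called in the lymph node libraries, with genes called in both in red and a dotted line of equality. The 105 higher and 45 lower genes called in both sets lie in the quadrants of like sign.

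By edgeR, some of the gene groups had more calls without lymph node than with it: 37 of 46 respiratory genes, 17 of 22 TCA cycle genes, 18 of 23 genes of fatty acid oxidation and 12 of 31 matrix genes. Without casein control 5 the first 3 counts were 5, 1 and 7, without elemental MR 2 they were 14, 6 and 5, and without casein control 4 they were 16, 6 and 5, and the TCA cycle count was 11 without oxidized casein MR 4. The matrix count lay between 8 and 13 and was 8 without elemental MR 2 or oxidized casein MR 1 or 6. In the lymph node libraries edgeR called 9 respiratory, 5 TCA cycle, 10 fatty acid oxidation and 2 matrix genes. DESeq2's Wald test called 38, 15, 17 and 4 of them there. Differences between lists of calls are no test of a difference in effect. That test, the interaction of restriction with lymph node presence over all 24 libraries, called 1 of 15176 genes, 0.00659%, although 1095 had an unadjusted p under 0.05; DESeq2 called 4, limma voom 0, and edgeR 0 without oxidized casein MR 3. The gene was Il1r2, the decoy receptor for interleukin-1. In the lymph node libraries it had 3.64 to 8.24 CPM in restricted (median 4.53) and 2.84 to 6.29 in control libraries (median 5.43), with a log2 fold change of 0.06 ± 0.19. In the others it had 1.66, 4.04, 3.47 and 2.03 CPM in oxidized casein MR and 2.44 in elemental MR, against 13.1 and 15.3 in elemental control and 13.9 and 8.33 in casein control, a log2 fold change of -2.13 ± 0.28 (edgeR adjusted p = 0.0049). The difference, lymph node libraries minus the others, was 2.37 ± 0.35 (edgeR adjusted p = 0.00481), with no overlap of the groups in the others and overlap in the lymph node libraries. The model had no term for a restriction effect that differs by protein source. Because the sets differ in their mix of restricted diets, a difference by lymph node is partly mixed with 1 by source. Il1r2 kept its call when such a term was added.

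Whether restriction acted differently on the 2 protein sources within the lymph node libraries was tested with 7 restricted and 8 control libraries, only 2 of them from oxidized casein MR. The interaction called 0 of 15644 genes (0%) with edgeR, with 349 at an unadjusted p under 0.05, and DESeq2 and limma voom also called 0. Slc25a34 had log2 fold changes of 2.95 within elemental and 2.66 within casein diets, Gk 1.69 and 1.47, and Igfbp4 -1.07 and -1.005. Ucp1 had 1.57 and 2.72 and Chchd10 0.82 and 1.77, where the casein value was the larger but the difference did not pass.

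The promoters of the called genes were read for 4 motifs. RefSeq promoters (GRCm38.p6, 250 bases before to 50 after the start) were matched by symbol for 189 of the 237 higher and 65 of the 91 lower genes, and for 11208 of the genes tested. Both strands were searched. The palindrome bound by NRF1, a regulator of nuclear genes for mitochondria, stood in 5 of 189 higher promoters (2.65%) and in 2.17% of all tested ones. The direct repeat of PPAR and RXR stood in 1 of 189 (0.529%), against 6 of 11208 tested ones (0.0535%). TNAAGGTCA, a site of estrogen-related receptors, and TGATGCAAT, a CEBP-ATF response element, stood in 0 of 189, against 0.973% and 0.152% of all tested promoters. None of the 65 lower promoters held any of the 4. The 5 higher genes with the NRF1 letters were Etfdh, Ndufaf4, Fitm2, Uck1 and Pgam1. A match is a description of these windows, not a bound site. The matches in 3 genes of mitochondrial function that rose are shown, 5′ to 3′ on the gene's strand with the motif in capitals: Etfdh and Ndufaf4, a complex I assembly factor (log2 fold change 0.57 ± 0.12), with the NRF1 letters, and Isca1, an iron-sulfur cluster assembly protein (0.58 ± 0.15), with the direct repeat.
Etfdh, chr3:79628718-79629017, minus strand: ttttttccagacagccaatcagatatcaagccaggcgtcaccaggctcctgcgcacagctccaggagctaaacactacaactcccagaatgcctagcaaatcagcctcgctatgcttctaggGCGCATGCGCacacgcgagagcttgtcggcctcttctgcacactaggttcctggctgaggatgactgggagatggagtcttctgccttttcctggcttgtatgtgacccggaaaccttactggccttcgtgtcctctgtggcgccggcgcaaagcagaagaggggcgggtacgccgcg
Ndufaf4, chr4:24897833-24898132, plus strand: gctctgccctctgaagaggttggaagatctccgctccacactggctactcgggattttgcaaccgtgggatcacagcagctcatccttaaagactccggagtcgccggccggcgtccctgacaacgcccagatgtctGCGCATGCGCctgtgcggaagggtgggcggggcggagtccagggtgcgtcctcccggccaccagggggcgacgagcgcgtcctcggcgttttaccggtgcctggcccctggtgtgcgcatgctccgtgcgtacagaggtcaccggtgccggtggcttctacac
Isca1, chr13:59769740-59770039, minus strand: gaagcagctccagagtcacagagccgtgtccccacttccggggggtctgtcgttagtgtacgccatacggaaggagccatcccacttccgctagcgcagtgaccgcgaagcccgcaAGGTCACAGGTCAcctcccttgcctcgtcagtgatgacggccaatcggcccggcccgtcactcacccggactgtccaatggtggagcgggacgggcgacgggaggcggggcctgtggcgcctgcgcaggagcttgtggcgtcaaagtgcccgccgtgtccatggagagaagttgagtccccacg
The motif began 128 bases before the start in Etfdh, 113 before it in Ndufaf4 and 134 before it in Isca1.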

How the data were processed

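RNA from IWAT of 24 mice was sequenced by the submitters with a QuantSeq 3′ kit and 50-base reads, per the labels' protocols. The authors deposited a table of raw read counts per gene (16821 genes), used here, and a normalized table, not used. The submitters' processing notes name the build GRCm38, R 3.4.3 and DESeq2 1.18.1; which aligner and counter were used, and on which strand, is not stated in the labels or the file. Gene symbols and coordinates were added by Ensembl ID from GENCODE M21 (GRCm38) and a symbol table, which named 16771 genes.

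Libraries were kept where Ms4a1 reached 25 CPM of the column total. The kept libraries held 8023612 to 17129341 counted reads. Genes were filtered with filterByExpr (1177 removed), scaled by TMM and tested with edgeR 4.0.16 (quasi-likelihood, robust, 2-sided) in R 4.3.3, with protein source as an additive term. The CPM given are TMM-scaled unless the column total is named. Single values were tested by exact permutation on log2(CPM + 1). Alternatives used DESeq2 1.42.0 and limma 3.58.1, other filters, scalings, thresholds and omissions, and counts of list members under each alternative were added after seeing the data. The fits were tested on simulated data. Named genes were the 15 largest rises and 15 largest falls among calls whose mean log2 CPM was 2 or more, then the 10 smallest p, up to 4 members per list by smallest p, and the single values; others were named after their values were seen (members of lists, import, complement, peroxisome and pyruvate genes). The libraries, genes and lists were chosen with earlier results of these data known. Labels call the samples separate mice. A count table without molecular identifiers counts reads, not molecules.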

Additional observations from a re-analysis of the deposited data

Results flagged for a closer look

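Of 150 sets of values (the restricted or the control libraries of 1 gene) 12 had a library whose gap to its nearest neighbour exceeded Dixon's 95% critical value, where chance flags about 1 in 20. Elemental MR 4 was the highest restricted library for mt-Tv (23.9 CPM, next 12.5), Chchd10 (2659 CPM, next 1916) and Cars2 (39.5 CPM, next 28.2). Elemental MR 3 was the highest restricted library for Col3a1 (593.6 CPM, next 436.6), Col6a3 (212.2 CPM, next 133.6) and Psat1 (44.2 CPM, next 31.4). Elemental control 1, the control library with the most Ucp1, was the highest control for Gmpr (23.4 CPM, next 16.6), Acot2, an acyl-CoA thioesterase (218.5 CPM, next 111.0), and Slc25a51 (371.0 CPM, next 245.2). Elemental control 6 was the highest control for Adra1b (11.1 CPM, next 5.33) and casein control 1 for Nnmt (96.5 CPM, next 71.0). Casein control 2 was the lowest control for Pck1 (1053 CPM, next 1794).

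The effect of restriction on Il1r2 differed between the lymph node libraries and the others by 2.37 on the log2 scale in the interaction test, and by 2.10 to 2.61 with 1 library left out. It did not pass with limma voom or without oxidized casein MR 3.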

How the results depend on the processing

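The 328 calls became 755 with DESeq2's Wald test (318 shared), 564 with the lymphocyte level as a covariate, 229 without the source term, and 1 at an Ms4a1 threshold of 100 CPM, which keeps 6 libraries, 2 restricted and 4 control. Single omissions gave 92 to 769. The 593 calls without lymph node became 1276 with DESeq2, and 164 to 545 under omissions: 216 without elemental MR 2, 355 without oxidized casein MR 4, and 351 and 164 without casein control 4 and 5. The test between the sets gave 4 calls with DESeq2, 0 with limma voom, and 0 without oxidized casein MR 3. DESeq2 size factors, no filter, a stricter filter, a threshold of 10 CPM and a single fit of all libraries kept the first count within 1.5 times; size factors moved the median gene by less than 0.1. All 60 called named genes kept their sign in every alternative, and 59 lost their call at 100 CPM, all but Acot2. Sign changes arose in genes near 0. Psat1 had 0.0826 at 100 CPM and 0.0386 at 10 CPM, and the Il1r2 effect in lymph node libraries -0.0198 and -0.0139 there. Under omissions Il1r2 lay between -0.0737 and 0.139 and Scd1 between -0.0245 and 0.137. Scaled to the column total, the permutation coefficients of Scd1 and Asns were -0.0680 and -0.0675; under omissions that of Scd1 lay between -0.0046 and 0.167. The causes were not tested. Leaving out libraries with over 1000 CPM of the column total for Acta1 removed none of the 15. No paired analysis was possible because each mouse has a number of its own in the labels, and the replicate numbers used here follow accession order and tie no mice together. Counts under 1 CPM limit Dhrs9, Lgr6 and Ap3b2 in control or restricted libraries.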
